A study of Mus musculus with 6 samples.

Results

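The endothelin axis of jaw patterning was examined in the mouse secondary palate through 8 genes matched by symbol: the ligand gene Edn1, the converting enzyme gene Ece1, the receptor genes Ednra and Ednrb, and the transcription factor genes Mef2c, Hand1, Hand2 and Gsc. These are 8 of the 56691 genes counted, and 7 of the 15673 genes that had at least 10 counts in at least 3 libraries and could be tested. The libraries were bulk RNA-seq of palatal shelves from C57BL/6J mouse embryos at E14.0 (embryonic day 14.0), for which the labels name no genotype change and no treatment. The front part of the shelves gave 3 anterior libraries and the back part 3 posterior ones, each cut as 1/3 of the shelf, and the sources do not say whether a library came from 1 embryo or several. Counts on genes were between 11378736 and 15172733 per library. For counting error only, 3 counts, the limit that a count of 0 allows, came to between 0.206 and 0.260 CPM. CPM are counts scaled to a library total of 1000000, with library sizes adjusted by edgeR's TMM normalization.

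Endothelins are small peptides that are cut from larger precursors by endothelin-converting enzyme and act on G protein-coupled receptors. In the pharyngeal arches, EDN1 from epithelium and arch core signals through EDNRA on cranial neural crest cells, with MEF2C, the DLX5 and DLX6 homeodomain factors and HAND2 acting downstream to give the lower jaw its identity. EDNRB, with its ligand EDN3, is best known from the neural crest that forms melanocytes and enteric neurons. The palatal shelves grow from the maxillary part of the same arch, where EDN1 signaling is known to be low.

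Of these genes, Gsc and Ednrb rose in the posterior palate, by 2.62-fold and 1.92-fold in mean CPM, and no member rose in the anterior palate. Ece1, Ednra and Mef2c were well expressed in both regions without passing the test. Edn1 was scarce in both, and Hand1 was at or below the limit of detection. Hand2 was at 3.52, 14.2 and 0.274 CPM in posterior replicates 1 to 3, against 0.606 to 0.800 CPM in the anterior libraries. By edgeR's quasi-likelihood test, with p-values adjusted over all genes tested and a threshold of 0.05, 2 of the 7 members tested were called, against 7.46% of all genes tested. In the posterior direction this was 2 of 7 against a background of 4.87%, and in the anterior direction 0 of 7 against 2.59%, with 0 at an unadjusted p below 0.05 and 0 by DESeq2 or limma-voom. With a change of at least 1 on the log2 scale also required, 1 member remained in the posterior direction, Gsc, against 3.53%. The median log2 fold change (posterior over anterior) was 0.42 over the 7 members and -0.0040 over all genes tested.

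**Figure D1:**
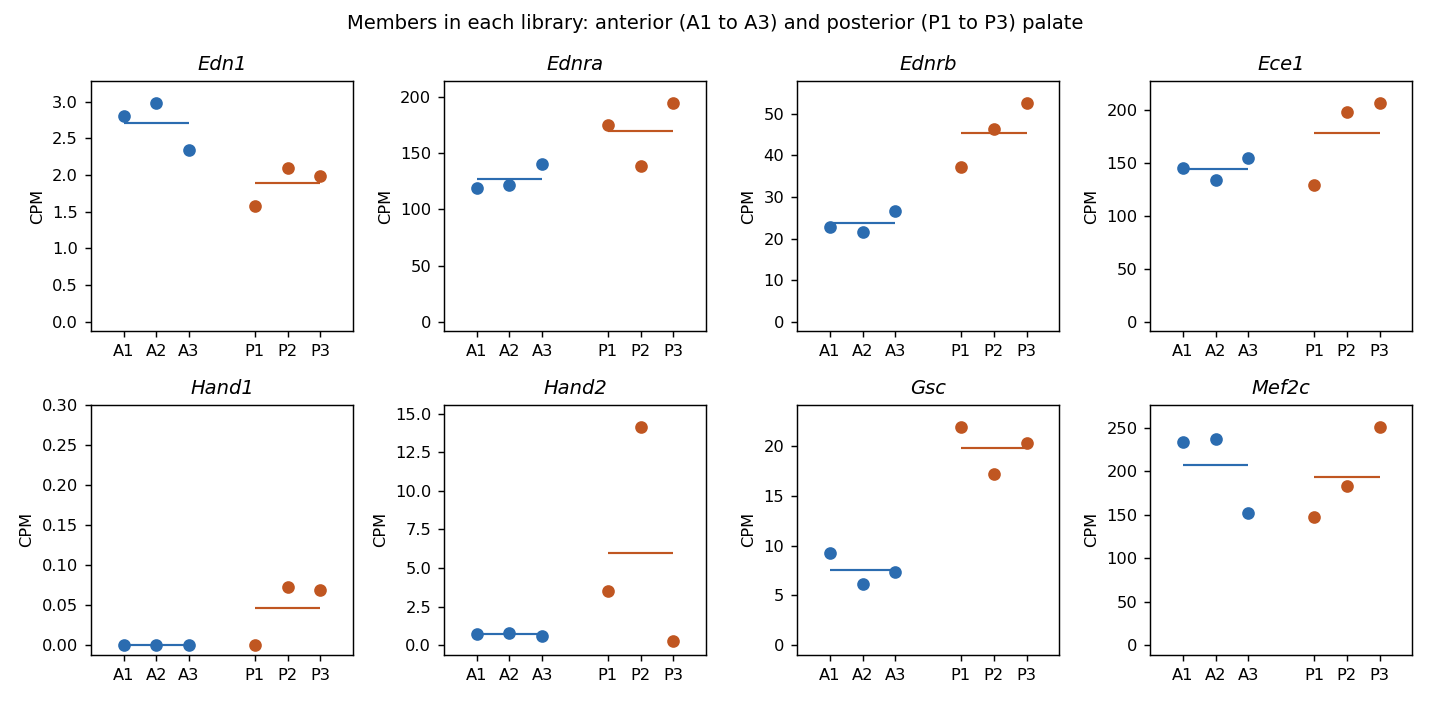
CPM of the 8 genes in each library on linear axes, with points for anterior replicates (A1 to A3) and posterior replicates (P1 to P3) and a line at each region's mean (n = 3). The points of the 2 regions are apart for Edn1, Ednrb and Gsc, and P2 stands above every other library for Hand2.

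Tissue identity was checked first. Prrx1, a homeobox gene of craniofacial mesenchyme, was at 1036 to 1078 CPM in the anterior and 389.9 to 460.5 CPM in the posterior libraries. The anterior palate genes Shox2 and Msx1 and the posterior palate genes Meox2 and Tbx22 were called in their known directions, with log2 fold changes of -5.04, -7.46, 4.62 and 4.58. Posterior replicates 2 and 3 stood apart from the other 4 libraries in a way the labels do not name, with 6.12% and 5.94% of reads mapping to several places against 8.45% to 8.77%. Their mitochondrial counts were also lower, 0.973% and 1.14% against 2.70% to 2.97%. A fit with a term for these 2 groups of libraries, called the library-group term below, takes the region difference from posterior replicate 1 and the anterior libraries alone. It called 7.61% of genes and 2 of the 7 members, Gsc and Ednrb. Its posterior side is thus a single library, assumed to vary as the anterior libraries and posterior replicates 2 and 3 did, so its p-values do not measure the spread of that library.

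All 10 skeletal muscle markers tested were higher in the posterior palate, with a median log2 fold change of 5.96, and their summed level was 15.4 to 17.1 CPM in the anterior and 629 to 1125 CPM in the posterior libraries. The posterior pieces therefore held muscle transcripts that the anterior pieces nearly lacked, which applies to every posterior difference given here, and the part of muscle in the members' values was not tested. In bulk tissue, more cells of a type and more RNA per cell cannot be told apart. Endothelial markers, which matter here because endothelium expresses Edn1, Ece1 and Ednrb, had 0 of 10 called by edgeR in either direction. At an unadjusted p below 0.05 there was 1 in each direction, and DESeq2 called 1, higher in the posterior palate. The library-group term called 1, Cdh5, the vascular cadherin gene, at -0.46 with an adjusted p of 0.0100. In the main test Cdh5 was at 0.14. The 10 endothelial markers ranged there from -0.25 for Esam to 0.72 for Kdr, with a median of 0.12. Their sums were 503 to 523 CPM in the anterior and 438 to 690 CPM in the posterior libraries.

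Edn1 encodes the ligand of the jaw-patterning pathway. The gene lies at chr13:42301476-42307990 on the + strand (positions here and below are from GENCODE M21, build GRCm38). Its counts were 37, 41 and 27 in anterior replicates 1 to 3 and 21, 29 and 29 in posterior replicates 1 to 3, or 2.81, 2.98 and 2.34 CPM against 1.57, 2.10 and 1.99 CPM. Every anterior library was above every posterior library. The log2 fold change was -0.52 ± 0.24 (SE, n = 3 per region) with a 95% interval from -1.09 to 0.042 and an edgeR adjusted p of 0.226, so the difference did not pass the test. With the library-group term it was -0.79 with an adjusted p of 0.239. Of all genes tested, 13.4% had anterior libraries that were all above the posterior ones, as Edn1 did, the only 1 of the 7 members with that order.

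Ece1 encodes the membrane protease that releases active endothelin. It lies at chr4:137862237-137965229 on the + strand. The anterior libraries held 145, 134 and 155 CPM and the posterior libraries 129, 198 and 206 CPM, so posterior replicate 1 was below every anterior library and posterior replicates 2 and 3 above them. The regions overlapped. This gave a log2 fold change of 0.30 ± 0.18 (95% interval from -0.11 to 0.72, edgeR adjusted p = 0.320). Its sign depended on the libraries that stood apart: the library-group term gave -0.16 with an adjusted p of 0.411. Without posterior replicate 1 it was 0.49 with an adjusted p of 0.00109, in a fit that called 46.4% of all genes and 5 of the 7 members.

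The receptor genes come next. Ednra, the receptor of EDN1 in cranial neural crest, lies at chr8:77663031-77724464 on the - strand. It was at 119, 122 and 141 CPM in the anterior and 175, 139 and 195 CPM in the posterior libraries, with posterior replicate 2 inside the anterior range. The log2 fold change was 0.42 ± 0.14 (95% interval from 0.083 to 0.75, edgeR adjusted p = 0.130), which did not pass the test. It passed only without posterior replicate 1, at 0.40 with an adjusted p of 0.0468, where 46.4% of genes were called.

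Ednrb lies at chr14:103814625-103844402 on the - strand and encodes the receptor that binds all 3 endothelins. Its counts were 299, 296 and 309 in the anterior and 498, 641 and 768 in the posterior libraries, or 22.7, 21.5 and 26.7 CPM against 37.3, 46.3 and 52.7 CPM. The regions did not overlap, and the posterior mean of 45.4 ± 7.73 CPM (SD, n = 3) stood against an anterior mean of 23.6 ± 2.74 CPM. The log2 fold change was 0.94 ± 0.16, with a 95% interval from 0.58 to 1.30 and an edgeR adjusted p of 0.0113. With the library-group term the difference was smaller, 0.66 with an adjusted p of 0.0272. The call was lost when anterior replicate 1, anterior replicate 2 or posterior replicate 2 was left out, with adjusted p-values of 0.0670, 0.0707 and 0.0571 and log2 fold changes of 0.91, 0.88 and 0.93.

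Ednrb marks several neural crest derivatives besides mesenchyme, so the glial and melanocyte markers are given beside it. Of the 8 markers tested, 1 was called, Erbb3, the neuregulin receptor gene of Schwann cell precursors, at 0.70 with an adjusted p of 0.0413. No marker of this list was called by limma-voom, with the library-group term or without posterior replicate 2. Their summed level was 57.7 to 65.4 CPM in the anterior and 64.8 to 93.3 CPM in the posterior libraries. Sox10, a defining gene of both lineages, was at 5.16 to 5.45 CPM in the anterior and 4.46 to 6.50 CPM in the posterior libraries. The pigment enzyme genes Dct and Tyrp1 were at or near 0, with at most 0.137 and 0.218 CPM in any library, and Pmel, a melanosome gene, was at 0.449 to 0.939 CPM. Mitf, the master regulator gene of melanocytes, was at 2.96, 3.56 and 3.81 CPM in the anterior and 3.67, 5.71 and 6.24 CPM in the posterior libraries, a log2 fold change of 0.60 with an adjusted p of 0.197. The part of these cells in the Ednrb difference was not tested.

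The balance of the receptors was taken as Ednra counts per kb of exon as a share of Ednra plus Ednrb. It was 80.3%, 81.5% and 80.4% in the anterior libraries and 78.5%, 70.0% and 74.3% in the posterior libraries. Ednra transcripts were thus the more abundant everywhere, and every posterior share was below every anterior share. The means were 80.8% ± 0.659 and 74.3% ± 4.27 (SD, n = 3), a difference of -6.49 percentage points with a two-sided exact permutation p of 0.1. That is the smallest p this permutation test can give with 3 against 3 libraries, so it cannot pass 0.05. From posterior replicate 1 alone, the posterior library that did not stand apart, the difference was -2.22 percentage points, and the lower shares were those of posterior replicates 2 and 3. As a ratio, Ednra stood at 4.20 ± 0.181 times Ednrb in anterior libraries and 2.96 ± 0.666 times in posterior ones.

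Gsc encodes goosecoid, a paired-type homeodomain repressor that acts downstream of EDNRA in the first arch and is needed for normal craniofacial bones. It lies at chr12:104471209-104473330 on the - strand. Its promoter is shown because it was the member with the firmest difference, and those of Ednrb and Hand2 are shown beside it. Each is the 250 bases before the start of the RefSeq transcript (GRCm38.p6), 5′ to 3′ on the gene's strand, with capitals marking CANNTG, the E-box that basic helix-loop-helix proteins such as the HAND and TWIST factors contact. Gsc is chr12:104473237-104473486 (- strand), Ednrb is chr14:103843702-103843951 (- strand) and Hand2 is chr8:57320733-57320982 (+ strand). The RefSeq starts are not always those of M21. By M21 the Ednrb window lies wholly inside the gene (chr14:103814625-103844402), and the Gsc window lies partly inside its gene.
Gsc: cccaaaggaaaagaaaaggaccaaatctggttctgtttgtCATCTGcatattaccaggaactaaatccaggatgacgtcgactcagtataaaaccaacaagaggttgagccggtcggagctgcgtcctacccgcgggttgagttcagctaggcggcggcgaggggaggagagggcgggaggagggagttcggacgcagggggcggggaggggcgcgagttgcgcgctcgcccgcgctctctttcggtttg
Ednrb: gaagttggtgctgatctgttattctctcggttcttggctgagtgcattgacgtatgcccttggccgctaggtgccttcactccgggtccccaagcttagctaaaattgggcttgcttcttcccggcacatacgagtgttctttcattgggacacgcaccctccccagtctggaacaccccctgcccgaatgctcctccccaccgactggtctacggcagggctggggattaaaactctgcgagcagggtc
Hand2: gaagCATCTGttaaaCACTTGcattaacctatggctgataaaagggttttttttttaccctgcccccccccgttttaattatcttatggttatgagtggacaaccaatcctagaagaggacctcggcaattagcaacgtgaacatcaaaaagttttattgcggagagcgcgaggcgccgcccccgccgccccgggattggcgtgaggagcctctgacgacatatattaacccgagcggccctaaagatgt

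The Gsc window held 1 E-box, at 210 bases before the RefSeq start, and the Hand2 window held 2, at 246 and 235 bases before it. No match was found in the Ednrb window, which by M21 is sequence within the gene. CANNTG was found on either strand in 72.3% of the 32817 RefSeq promoter windows of 300 bases (250 before and 50 after the start), so a match is a description and no sign of binding. TAATTA, a core bound by many homeodomain proteins, was rarer, in 5.30% of all windows. Among the windows shown it was found in that of Hand2, at 175 bases before the start. TATAAA was in 13.6% of all windows and in the Gsc window at 164 bases before the start. The MEF2 motif was in 3.19% of all windows and in none of the windows of the 7 members with an entry in the promoter table used.

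Gsc counts were 122, 84 and 85 in the anterior and 293, 238 and 296 in the posterior libraries, or 9.26, 6.11 and 7.35 CPM against 21.9, 17.2 and 20.3 CPM. The lowest posterior library was above the highest anterior library. The log2 fold change was 1.39 ± 0.19, with a 95% interval from 0.95 to 1.82 and an edgeR adjusted p of 0.00489. It was called in 18 of 18 settings tried, with values from 1.25 to 1.56, and with the library-group term it was 1.53 with an adjusted p of 0.00451. Gsc and Ednrb were the 2 of 7 members whose posterior libraries were all above the anterior ones, an order seen in 14.7% of all genes tested.

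**Figure D2:**
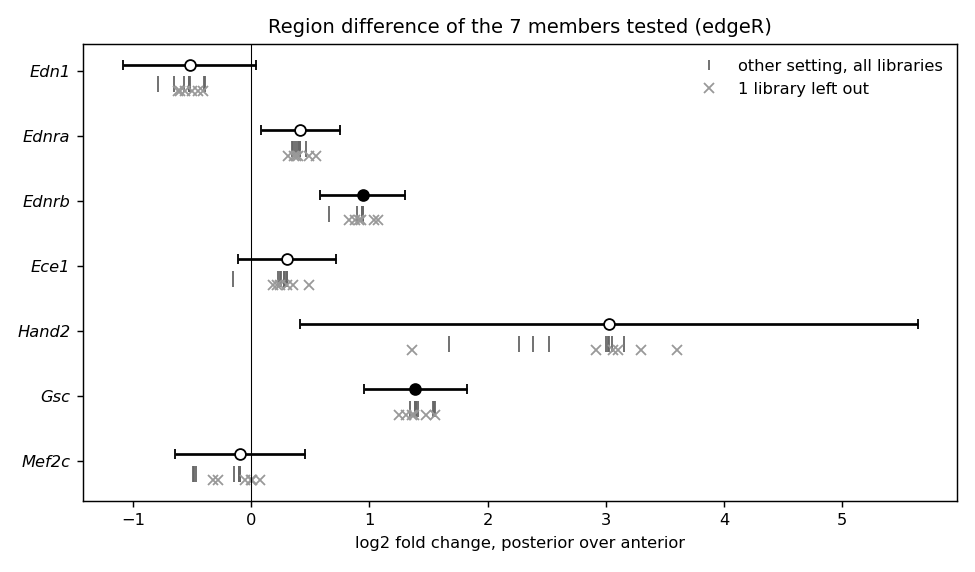
Log2 fold change of the 7 members tested, posterior over anterior, with the edgeR estimate and its 95% interval (filled where the adjusted p was below 0.05), ticks for the other settings with all libraries and crosses for fits with 1 library left out. The values of Gsc lie between 1.25 and 1.56 under every setting, those of Hand2 spread from 1.36 to 3.60, and those of Ece1 and Mef2c fall on both sides of 0.

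Mef2c encodes a MADS-box factor that EDN1 signaling activates in neural crest and that also acts in muscle and endothelium. It lies at chr13:83504034-83667080 on the + strand. The anterior libraries held 234, 237 and 152 CPM and the posterior libraries 147, 183 and 251 CPM, so that libraries of 1 region differed as much as any between regions. Their log2 fold change was -0.10 ± 0.24 (95% interval from -0.64 to 0.45, edgeR adjusted p = 0.811). The interval leaves room for a difference of up to 0.64 on the log2 scale in the anterior direction. The summed skeletal muscle markers stood at 815, 629 and 1125 CPM in posterior replicates 1 to 3, and their part in the Mef2c values was not tested. With the library-group term the Mef2c value was -0.49 (adjusted p = 0.356), and with a correction for transcript length it was -0.49 (adjusted p = 0.170).

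Hand1 and Hand2 encode basic helix-loop-helix factors of the ventral arches, heart and limb. Hand1, at chr11:57828705-57832818 on the - strand, had 0 counts in all 3 anterior libraries and 0, 1 and 1 in the posterior libraries. This is under the limit of 3 counts per library, and no difference was detectable at this depth. Hand2, at chr8:57320983-57324633 on the + strand, had 10, 11 and 7 counts in the anterior and 47, 196 and 4 in the posterior libraries. In CPM this was 0.759, 0.800 and 0.606 against 3.52, 14.2 and 0.274. Posterior replicate 2 held 71.3% of all 275 Hand2 counts, and posterior replicate 3 was below every anterior library. As a log2 fold change this was 3.03 ± 1.12 with a 95% interval from 0.42 to 5.64 and an edgeR adjusted p of 0.150, which did not pass the test.

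The Hand2 value changed with the library left out, the tool and the model. Without posterior replicate 2 it was 1.36, with an adjusted p of 0.506. Without posterior replicate 3 it was 3.60 and passed at an adjusted p of 0.0270, and without posterior replicate 1 it was 3.29 at 0.0446. DESeq2 gave 3.05 with an adjusted p of 0.0140 and called 3 of the 7 members, where it called 12.6% of all genes. In edgeR with no filter on low counts it was 3.02 at 0.0225. By limma-voom it was lower, 1.67 with an adjusted p of 0.510, and with the library-group term in edgeR it was 2.26 at 0.447, neither past the threshold.

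Hand2os1, the long noncoding transcript that starts on the opposite strand, followed the same libraries. In RefSeq its start is 124 bases from that of Hand2, and the promoter windows of the pair share 223 bases, whereas in GENCODE M21 it spans chr8:57281117-57324233 on the - strand and covers most of Hand2. Hand2os1 had 1, 5 and 1 counts in the anterior and 10, 62 and 3 in the posterior libraries, and was too low to be tested. Because the genes overlap on opposite strands, strand matters to both. The reverse-stranded counts gave Hand2 4, 2 and 5 reads in the anterior and 17, 78 and 1 in the posterior libraries beyond the unstranded ones, the same numbers that fell on the other strand of Hand2os1. For the members, reads on the other strand made up 0% to 1.58% of those on either strand.

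Hand2 is also known from sympathetic neurons, and neuronal genes were highest in the same library. Of the 7 neuronal markers, 6 were highest in posterior replicate 2, the exception being Isl1, which was called higher in the anterior palate. The summed neuronal level was 54.9 to 63.5 CPM in the anterior libraries and 54.4, 293 and 37.9 CPM in posterior replicates 1 to 3. By edgeR 0 of the 6 tested were called higher in the posterior palate, with 3 at an unadjusted p below 0.05 and 2 called by DESeq2. Snap25, a synaptic vesicle fusion gene, had 4, 2 and 2 counts in the anterior and 18, 152 and 7 in the posterior libraries, too few in most to be tested.

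A list of 11 autonomic neuron genes was added after these values were seen, and 6 of the 11 were highest in posterior replicate 2. By edgeR 0 of the 6 tested were called higher in the posterior palate, with 1 at an unadjusted p below 0.05 and 1 called by DESeq2, and 2 were called higher in the anterior palate. Those 2 were the zinc finger factor genes Gata3 (-2.93, adjusted p = 0.0142) and Gata2 (-1.27, adjusted p = 0.00848), and Insm1 and Ret were also highest in an anterior library. Phox2a, a homeodomain factor of autonomic neurons, had 2, 1 and 0 counts in the anterior and 14, 161 and 2 in the posterior libraries. Prph, the peripherin gene of peripheral neurons, had 18, 17 and 16 counts against 83, 918 and 21. These genes thus shared with Hand2 the order of posterior replicates 2, 1 and 3. The genes of noradrenaline synthesis were scarce, with at most 5 counts of Th in any library and 0, 0 and 0 counts of Dbh in the anterior against 6, 15 and 7 in the posterior libraries. The part of neurons in the Hand2 value was not tested.

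**Figure D3:**
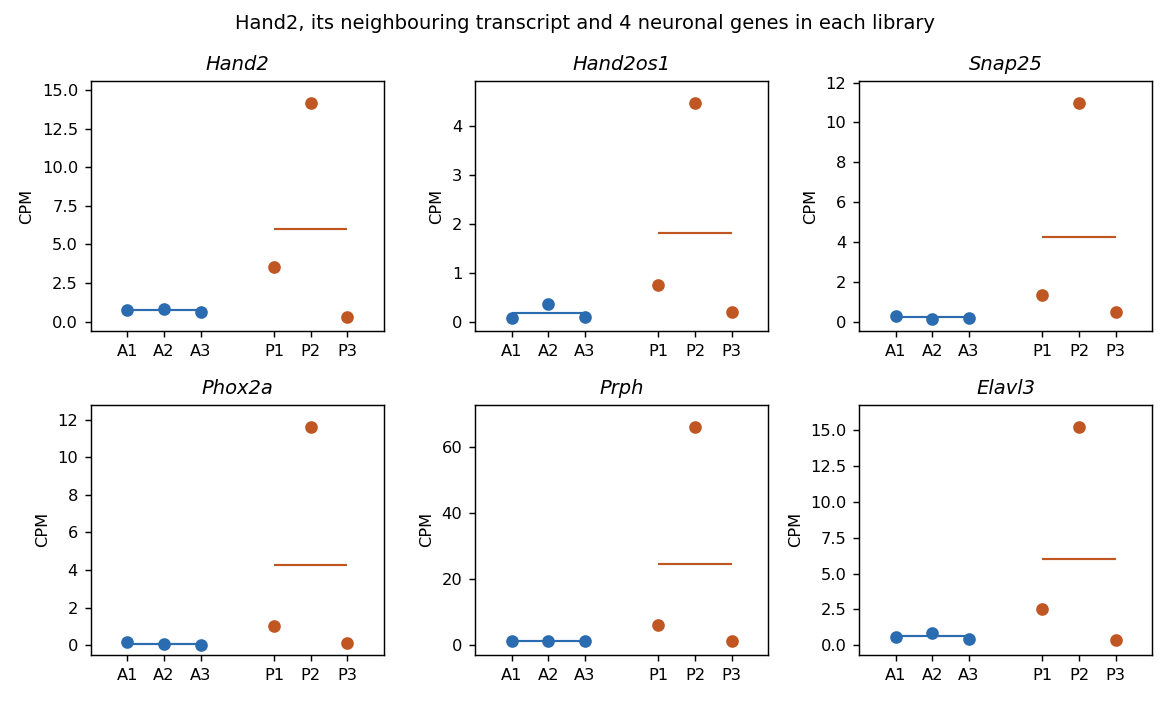
CPM of Hand2, the neighboring transcript Hand2os1 and the neuronal genes Snap25, Phox2a, Prph and Elavl3 in each library on linear axes, with a line at each region's mean (n = 3 per region); the genes were chosen after their values were seen. In each panel P2 is the highest library and P1 the next.

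Levels were compared between genes as CPM per kb of exon. Ece1 stood highest of the members in both regions, at 27.2 ± 1.97 for the anterior and 33.6 ± 7.98 for the posterior libraries (SD, n = 3), followed by Ednra at 23.2 ± 2.19 and 31.0 ± 5.21. The libraries of these 2 genes overlapped in each region. Mef2c came next in the anterior palate at 13.2 ± 3.05, above Gsc at 5.97 ± 1.25 and Ednrb at 5.54 ± 0.641, which overlapped each other. In the posterior palate Gsc at 15.6 ± 1.90, Mef2c at 12.3 ± 3.36 and Ednrb at 10.6 ± 1.81 formed a group in which Mef2c overlapped both others and Gsc lay above Ednrb. Edn1, at 1.27 ± 0.156 and 0.881 ± 0.129, was at or near the bottom, with Hand2 below it in the anterior palate at 0.307 ± 0.0435 and overlapping it in the posterior palate at 2.55 ± 3.09.

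**Figure D4:**
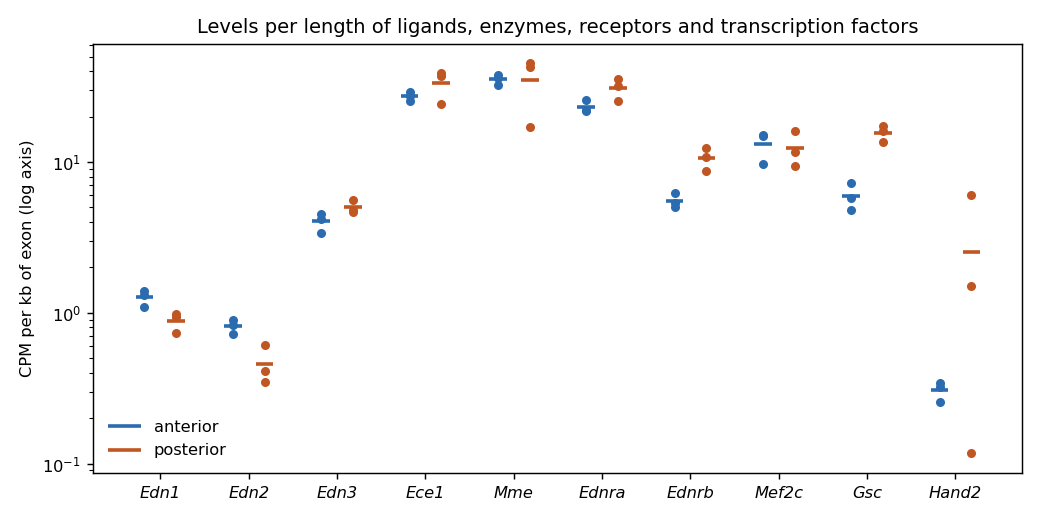
CPM per kb of exon on a log axis for ligand, enzyme, receptor and transcription factor genes, with points for the libraries and a line at each region's mean (n = 3). The receptor and enzyme genes Ednra and Ece1 stand far above the ligand genes Edn1 and Edn2 in both regions.

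The other genes of the pathway were taken as lists of 55 genes, of which 51 were tested, 5 called higher in the posterior and 4 higher in the anterior palate. Over all genes tested, edgeR called 4.87% higher in the posterior and 2.59% higher in the anterior palate, and DESeq2 called 12.6% in either direction. The counts of each list below are to be read beside these shares. Among 5 ligand and processing genes tested, 0 were called by edgeR in either direction, with 1 at an unadjusted p below 0.05 (Edn2, higher in the anterior palate) and 0 by DESeq2 or limma-voom, while the library-group term called 1, Mme, higher in the anterior palate. Edn3, the ligand usually paired with EDNRB, was the ligand gene of highest level per length, at 4.03 CPM per kb for anterior and 5.04 for posterior libraries. Its libraries held 17.3, 18.5 and 13.9 CPM against 19.2, 19.9 and 23.1 CPM, and its log2 fold change of 0.32 ± 0.15 had an adjusted p of 0.225. Mme, the neprilysin gene, whose product degrades endothelins, had the highest level of the list, 35.2 and 34.9 CPM per kb. These means hide a split among the posterior libraries, which were at 196, 492 and 519 CPM against 415, 433 and 371 CPM in the anterior libraries. The log2 fold change of Mme was -0.015 with an adjusted p of 0.980, and with the library-group term -1.05 with an adjusted p of 0.000864.

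Downstream of the receptors, edgeR called 1 of 18 signal transduction genes, higher in the anterior palate. DESeq2 called 2 higher in the posterior and 1 higher in the anterior palate, and the library-group term 1 and 4. Rgs5, a regulator of G protein signaling best known from pericytes, fell by 2.04 on the log2 scale in the posterior palate (adjusted p = 0.0147), with 32.3, 33.2 and 77.4 CPM in the anterior and 9.96, 13.2 and 11.5 CPM in the posterior libraries. The call was lost without posterior replicate 2 or 3. Rgs5 is also one of the 8 mural and smooth muscle markers, of which 2 were called higher in the posterior and 2 higher in the anterior palate. Gnai3, an inhibitory G protein subunit gene, had the highest level of the list, 80.9 and 88.1 CPM per kb.

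The mandibular patterning list holds genes of jaw patterning, several of them known to depend on EDN1 in the lower jaw, and others, such as Dlx1 and Dlx2, also expressed in the upper jaw. Of 9 mandibular patterning genes tested, 2 were called higher in the posterior and 3 higher in the anterior palate, with a median log2 fold change of -0.85, against 2 and 5 by DESeq2. Without posterior replicate 2, 8 were tested, of which 0 were called higher in the posterior and 1 higher in the anterior palate. Dlx3, Dlx4 and Dlx5, homeodomain genes nested along the arches, were higher in the anterior palate by log2 fold changes of -2.64, -3.37 and -1.68 (adjusted p = 0.00209, 0.0338 and 0.0160). Dlx4 rested on 28, 14 and 36 counts in the anterior and 0, 5 and 3 in the posterior libraries, and its value ranged from -7.79 to -2.82 over the settings. Dlx5 was at 50.7, 51.9 and 26.5 CPM in the anterior and 9.43, 14.5 and 16.2 CPM in the posterior libraries. Its neighbor Dlx6 had -1.66 with an adjusted p of 0.0880, at 20.0, 17.8 and 10.6 CPM against 1.65, 7.59 and 6.03 CPM. The regions did not overlap for Dlx5 or Dlx6. The other genes not called were Dlx1, Dlx2 and Pitx1, with log2 fold changes of 0.76, -0.50 and -0.85 (adjusted p = 0.136, 0.568 and 0.0628).

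In the other direction, Barx1, a homeobox gene of posterior palate and molar mesenchyme, rose by 1.84 on the log2 scale in the posterior palate (adjusted p = 0.0348). It had the highest level per length of the mandibular list. It was at 45.5, 64.9 and 139 CPM in the anterior and 384, 239.5 and 268 CPM in the posterior libraries. Nkx3-2, a gene of the jaw joint, rose by 3.62 on the log2 scale (adjusted p = 0.00276) from 1, 3 and 1 counts in the anterior libraries, at or under the limit that a count of 0 allows, to 22, 23 and 26 counts in the posterior libraries. The size of that fold rests on these few anterior counts. Of these, Dlx3 was called in 18 of 18 settings and Nkx3-2 in the 14 in which it was tested. Dlx5 and Barx1 were each called in 14 of 18, with losses without anterior replicate 1, anterior replicate 2 or posterior replicate 2, for Barx1 also without posterior replicate 3 and for Dlx5 also with the replicate number as a block together with the transcript length correction. Dlx4 was called in 9 of 14, with losses in limma-voom, with that block with and without the length correction, and without posterior replicate 2 or 3.

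Of 4 maxillary patterning genes, which mark the upper jaw, 1 rose in the posterior palate by edgeR, and DESeq2 called 2. Nr2f1, an orphan nuclear receptor gene, was at 57.5, 58.4 and 63.8 CPM in the anterior and 218, 131 and 160.0 CPM in the posterior libraries (log2 fold change 1.50, adjusted p = 0.00343). It was called in 18 of 18 settings and had the highest mean level per length of this list in both regions, 11.8 and 33.3 CPM per kb. In the anterior palate the libraries of Jag1, at a mean of 11.6 CPM per kb, overlapped those of Nr2f1.

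Among the 9 dimer partners and inhibitors of the HAND and TWIST proteins, edgeR called 1, DESeq2 2 and the library-group term 4, all of them higher in the posterior palate. Twist1, whose product dimerizes with HAND2, rose from 163, 173 and 187 CPM to 333, 252 and 288 CPM (log2 fold change 0.74, adjusted p = 0.0129). It had the highest level per length of the list, 107 and 179 CPM per kb. Its call was lost without anterior replicate 1 or 2. Among the 6 Mef2 family and class IIa deacetylase genes tested, 1 was called, Hdac9, a repressor of MEF2 proteins, from 23.6, 25.1 and 25.7 CPM to 44.2, 36.7 and 47.7 CPM (0.79, adjusted p = 0.00914). The Hdac9 call was lost with a correction for transcript length and without anterior replicate 1 or 2. Hdac5 had the highest mean level of that list in both regions, 11.2 and 11.9 CPM per kb. In the anterior palate the libraries of Mef2d, at a mean of 11.2, and Hdac7, at 10.5 CPM per kb, overlapped those of Hdac5.

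**Figure D5:**
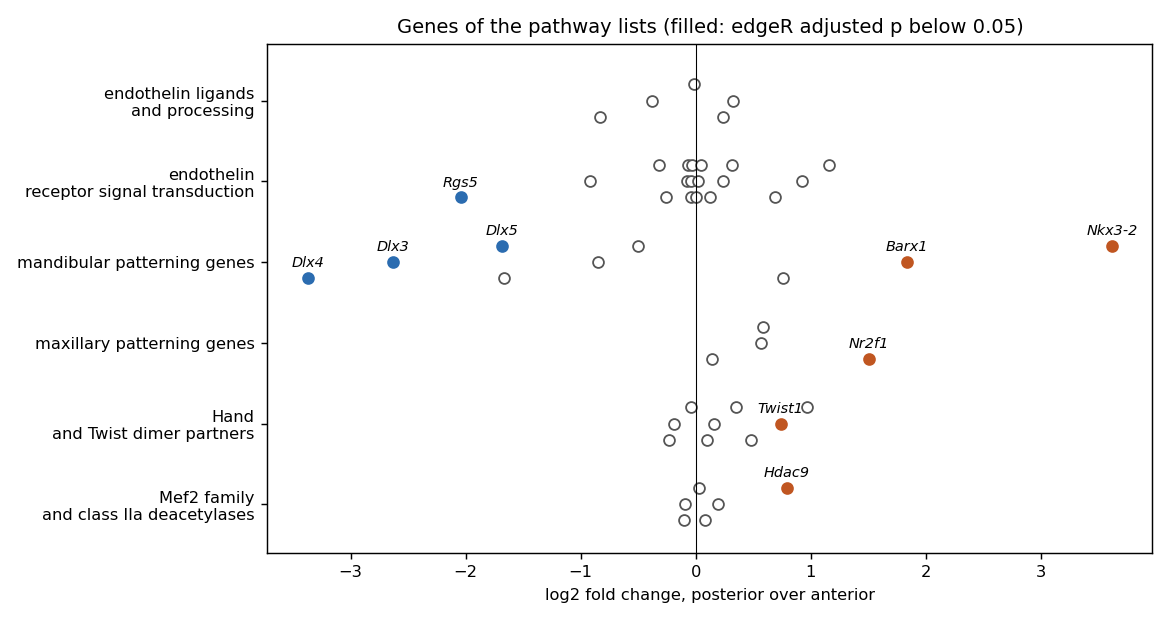
Log2 fold change, posterior over anterior, of the genes tested in the 6 pathway lists, 1 circle per gene; filled circles were called (edgeR adjusted p below 0.05, blue higher in the anterior and orange higher in the posterior palate). The mandibular genes spread to both sides, from -3.37 for Dlx4 to 3.62 for Nkx3-2, while the ligand and processing genes lie between -0.83 and 0.32.

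The remaining marker lists were also counted. Of 8 cranial neural crest mesenchyme markers, 3 passed the test with posterior libraries higher and 1, Prrx1, with anterior libraries higher. For epithelial markers this was 0 and 1 of 8, and for chondrocyte markers 3 and 0 of 7. The summed chondrocyte level was 202 to 295 CPM in the anterior and 556 to 818 CPM in the posterior libraries. Most of that sum in the posterior libraries was Col2a1, the type II collagen gene, and without it the sums were 134 to 193 CPM and 158 to 266 CPM, which overlapped. The part of cartilage in the members' values was not tested.

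For each member with a mean of at least 1 CPM, the genes with the most similar pattern over the 6 libraries were found by Pearson's r of log2(CPM + 0.5), as a description only, since all genes share the same libraries and their depth. The nearest to Gsc were Wnt16 (r = 0.998), Halr1 (0.992) and Thap2 (0.988). The nearest to Ednrb were Loxl3 (0.998), Inpp4b (0.997) and Adgrl3 (0.996), and the nearest to Ednra were Serpinf1 (0.993), Furin (0.993) and Slc1a4 (0.979). Furin encodes a protease that makes the first cut in endothelin precursors, and was at 124 to 136 CPM in the anterior and 134 to 166 CPM in the posterior libraries. For Hand2 the nearest were Zfp46 (0.979), Prph (0.973) and 5031439G07Rik (0.962). Those of Ece1 were Knl1 (0.999), Pcdhgc3 (0.998) and Wdr35 (0.998), those of Mef2c were Cyp20a1 (0.985), Amotl2 (0.974) and Zbtb40 (0.972), and those of Edn1 were Cldn8 (0.990), Prr5l (0.987) and Lifr (0.982).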

How the data were processed

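Per library, the authors deposited unnormalized read counts for every Ensembl gene, unstranded and by strand, in the layout STAR writes. The submitters' processing notes name HISAT2, StringTie, DESeq2 1.30.1 and mm10. The annotation behind the counts is not given in the sources used here. Reverse-stranded counts were used, 18.95 to 23.1 times those of the other strand.

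Libraries were grouped by the region in their labels. The test was edgeR's quasi-likelihood test (edgeR 4.0.16, R 4.3.3, TMM normalization, Benjamini-Hochberg over all genes, threshold 0.05), for genes reaching 10 counts in 3 or more libraries, and region was the only term. CPM are counts over TMM-scaled library sizes. Alternatives were DESeq2 1.42.0, limma-voom (limma 3.58.1), other normalizations and filters, unstranded counts, the replicate block, a library-group term, a transcript length correction and leaving out each library.

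GENCODE M21 paired 52073 of 56691 identifiers with symbols, versions ignored, 35 with the same version, so positions and exon lengths are those of M21. The members and lists were chosen with earlier results of these data known. Named were all members, every called gene and the gene of highest level per length in each pathway list, tissue check genes, and the 3 genes nearest each member in pattern. Some genes of the lists are not reported here. Edn2, Edn3, Cdh5, Esam, Kdr, Jag1, Mef2d, Hdac7 and the mandibular genes not called were chosen after their values were seen. So were the autonomic neuron genes and the other neuronal and melanocyte genes named singly. Replicate numbers were not used to pair the libraries in the main test, since the sources do not say whether same-numbered libraries share embryos. Libraries of the same region were further apart than sampling noise (chi-square per gene 3.43 to 67.3), and the paper describes the samples as biologically independent without saying how many embryos each held.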

Additional observations from a re-analysis of the deposited data

How the results depend on the processing

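Of the members, Gsc (called) and Edn1 (not called) had the same sign and the same outcome of the test under every alternative tried. With 1 library left out at a time, the log2 fold changes ranged from 0.31 to 0.54 for Ednra, 0.83 to 1.07 for Ednrb, 0.19 to 0.49 for Ece1, 1.36 to 3.60 for Hand2 and -0.32 to 0.072 for Mef2c, which changed sign without anterior replicate 2 (0.0058) and without posterior replicate 1 (0.072). Ece1 turned to -0.16 with the library-group term, and Mef2c was -0.49 with that term and with the length correction. Hand2 passed the test by DESeq2 (3.05), as it did when low counts were not filtered (3.02), was 1.67 by limma-voom, and could not be tested on unstranded counts or with at least 10 counts in every library. The members called numbered 1 when a change of at least 1 on the log2 scale was also required, and 1 to 5 with 1 library left out. The genes called numbered 1978 in DESeq2 (637 anterior and 1341 posterior), 2162 unfiltered (646 and 1516), and 498 to 7119 with 1 library left out (140 to 3242 and 312 to 3877). Requiring a change of at least 1 on the log2 scale gave 815 genes, with 262 anterior and 553 posterior. The causes of these changes were not tested. The fit with a replicate block called 829 genes, 237 of them higher in the anterior palate, and the same 2 members, Gsc at 1.40 and Ednrb at 0.93. Same-numbered libraries did not deviate together (correlations of -0.053, 0.045 and 0.036). With 3 libraries per region these values cannot tell whether the libraries were paired. The receptor balance moved by less than the spread between replicates on unstranded counts, without length scaling and with 1 library left out, but was -2.22 percentage points from posterior replicate 1 against the anterior libraries, an alternative chosen after seeing the data. With 3 libraries per region, Hand1 is below the limit of detection, and Edn1 and Hand2 rest on few counts.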
